A study of Mus musculus with 15 samples.

Results

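The cytosolic ribosomal protein genes were examined in hematopoietic stem cells (HSC) of the bone marrow, sorted as Lin−Sca-1+cKit+CD150+CD48− cells, of young mice, untreated aged mice and aged mice on NR. NR, nicotinamide riboside, is a precursor of NAD. Members were all genes of the count table named Rps or Rpl with a number, with or without a final a, l, x or y, together with Rpsa, Rplp0, Rplp1 and Rplp2, without pseudogenes named -ps and without the kinases of ribosomal protein S6. This gave 80 of 16154 genes (0.495%), of which 32 belong to the small subunit and 48 to the large subunit. All mice were C57BL/6, labelled female, with no genotype other than the strain given. Young mice (n = 5) were 6 to 12 weeks old and untreated, aged mice (n = 5) were 20 to 24 months old and untreated, and NR-treated aged mice (n = 5) were of that same age range and received 3 mg/ml NR in the drinking water for 2 months. Per the study's description, each library was made from 20000 to 25000 HSC of 1 mouse by a method that reads the 3′ end of transcripts and tags each molecule with a 10 bp unique molecular identifier.

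A cytosolic ribosome is built from a small 40S subunit, which binds the mRNA and decodes it, and a large 60S subunit, which joins the amino acids. Each subunit holds ribosomal RNA and a fixed set of proteins, which are made in the cytosol, imported into the nucleolus and assembled there. Most ribosomal protein mRNAs begin with a tract of pyrimidines (a TOP motif), through which growth signals set their translation, and HSC are known to keep protein synthesis low compared with the progenitors that they form.

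Total counts ranged from 764119 in aged replicate 2 to 13318989 in aged replicate 3, and 77 of the 80 genes had at least 10 counts in every library. HSC markers summed to between 1306 and 1911 CPM (counts scaled to a common library size) in all 15 libraries. Single markers differed between groups. Of the 8 markers, 5 had a log2 fold change above 0 in aged against young HSC and 3 below 0. Slamf1, the sort marker CD150, was at 30.5 to 53.7 CPM in young and 65.5 to 88.2 CPM in aged HSC. Procr and Ly6a did not overlap, with maxima of 82.3 and 160 CPM in young and minima of 138 and 245 CPM in aged HSC. The median of Hlf was lower in aged (340 CPM) than in young HSC (452 CPM). Although labelled female, 2 young libraries, replicates 1 and 5, went against that label with 104 and 108 CPM over 4 genes of the Y chromosome, where the highest value of any other library was 3.16 CPM. Both also held Xist, the RNA of the inactive X chromosome, at 436 and 482 CPM, within the 296 to 919 CPM of all libraries, and whether each holds cells of a single mouse was not tested. The 3 multipotent progenitor markers summed to 165 to 246 CPM in young, 85.6 to 119 CPM in aged and 76.0 to 98.4 CPM in NR-treated HSC. Every young library lay above all others in this sum, most of which was Cd34. Cd34 and Flt3 had lower medians in aged than in young HSC, while Cd48, absent from the sorted cells by definition, went the other way. Its median was 4.82 CPM in young, 27.3 CPM in aged and 3.89 CPM in NR-treated HSC. The young and aged ranges of Cd48 overlapped, and every NR-treated library lay below every aged one. Transcripts of mature blood cells also varied. The 7 erythroid genes summed to 145 to 2656 CPM in young, 3259 to 6517 CPM in aged and 72.3 to 565 CPM in NR-treated HSC. The 8 granulocyte genes summed to 23.7 to 5309, 1042 to 1672 and 15.7 to 167 CPM, where 5309 CPM was the value of young replicate 3 and Lcn2 had 3 counts or fewer in every NR-treated library. The 7 B lineage genes measured summed to 104 to 803, 602 to 4378 and 87.1 to 166 CPM. The part of these transcripts in the values below was not tested, and in such bulk samples fewer cells of a type and less RNA per cell cannot be told apart.

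The promoters below are shown as examples of annotated starts with and without a pyrimidine tract, for 3 genes that were higher in aged HSC and for Rpsa, which did not pass the test. RefSeq promoters (GRCm38.p6) were matched for 58 of the 80 genes. In 33 of these (56.9%) a run of at least 6 pyrimidines on the gene's strand overlapped the bases from 5 before to 10 after the annotated start, against 7714 of 27025 genes (28.5%) with a promoter. Each line gives the 60 bases centred on the annotated start, 5′ to 3′ on the gene's strand, with the pyrimidine run in capitals. The windows lie at chr3:90213619-90213678 (minus strand) for Rps27, chr9:120571487-120571546 (plus) for Rpl14, chrX:134585624-134585683 (plus) for Rpl36a, and chr9:120127736-120127795 (plus) for Rpsa.
Rps27: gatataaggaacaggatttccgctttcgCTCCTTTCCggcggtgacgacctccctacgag
Rpl14: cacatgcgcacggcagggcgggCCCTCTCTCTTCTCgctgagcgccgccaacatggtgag
Rpl36a: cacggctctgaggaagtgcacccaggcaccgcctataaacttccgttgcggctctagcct
Rpsa: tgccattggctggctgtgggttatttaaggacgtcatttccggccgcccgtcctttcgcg
Rps27 and Rpl14 hold a run of 9 and of 14 pyrimidines, and no run of 6 overlaps the annotated start of Rpl36a or Rpsa. Whether the annotated starts are those used in HSC was not tested, so a tract at another start is not excluded.

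Ribosomal protein transcripts took up a large part of every library, and a larger part in aged than in young HSC on average. Their summed share of the counts was 12.1, 13.5, 9.69, 12.0 and 11.6% in young replicates 1 to 5, 13.0, 12.8, 14.4, 13.8 and 15.3% in aged replicates and 13.8, 12.6, 12.6, 12.3 and 13.7% in NR-treated replicates. The means were 11.8 ± 1.37%, 13.8 ± 1.04% and 13.0 ± 0.694% (SD, n = 5 each). Young replicate 3 was lowest and aged replicate 5 highest, and each pair of groups overlapped, with young replicate 2 above aged replicates 1 and 2. The difference between aged and young means was 2.04 percentage points, it ranged from 1.51 to 2.46 when each library was left out in turn, and it was 2.10 without young replicates 1 and 5. It was -0.84 points for NR-treated against aged HSC (-1.11 to -0.48 with a library left out) and 1.20 points for NR-treated against young HSC (0.67 to 1.62). Both subunits held similar parts of this, with 4.62 to 6.35% of counts in young, 5.97 to 7.23% in aged and 5.76 to 6.53% in NR-treated HSC for the small subunit, and 5.07 to 7.14%, 6.80 to 8.07% and 6.58 to 7.31% for the large subunit.

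**Figure D1:**
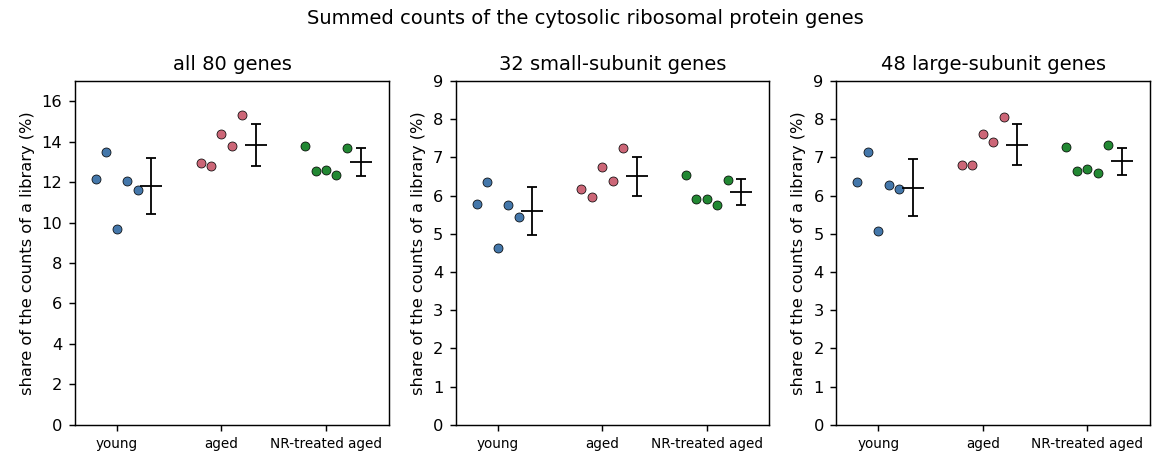
Share of the counts of each library (%, y axis) held by all 80 cytosolic ribosomal protein genes, by the 32 small-subunit genes and by the 48 large-subunit genes, in young, aged and NR-treated aged HSC. Points are single libraries in replicate order and bars are the mean ± SD (n = 5): the means over all 80 genes were 11.8, 13.8 and 13.0%, and the groups overlapped.

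Most members moved together from library to library. In young replicate 3, 2 of the 80 genes lay above their own mean over the 15 libraries, and 61 had their lowest value of all libraries there. In aged replicate 5, 77 genes lay above their mean and 50 had their highest value, and aged replicate 3 held the highest value of 19 further genes. Aged replicate 2, the shallowest library, had 27 genes above their mean. Among NR-treated libraries the number above the mean was 72 in replicate 1 and 56 in replicate 5, and between 10 and 15 in the other 3. The order of group means was young, NR-treated aged and aged, from low to high, in 64 of the 80 genes. The share of all genes in that order was not counted. The same aged libraries stand against both other groups, and the members move together, so these are not 64 independent results.

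**Figure D2:**
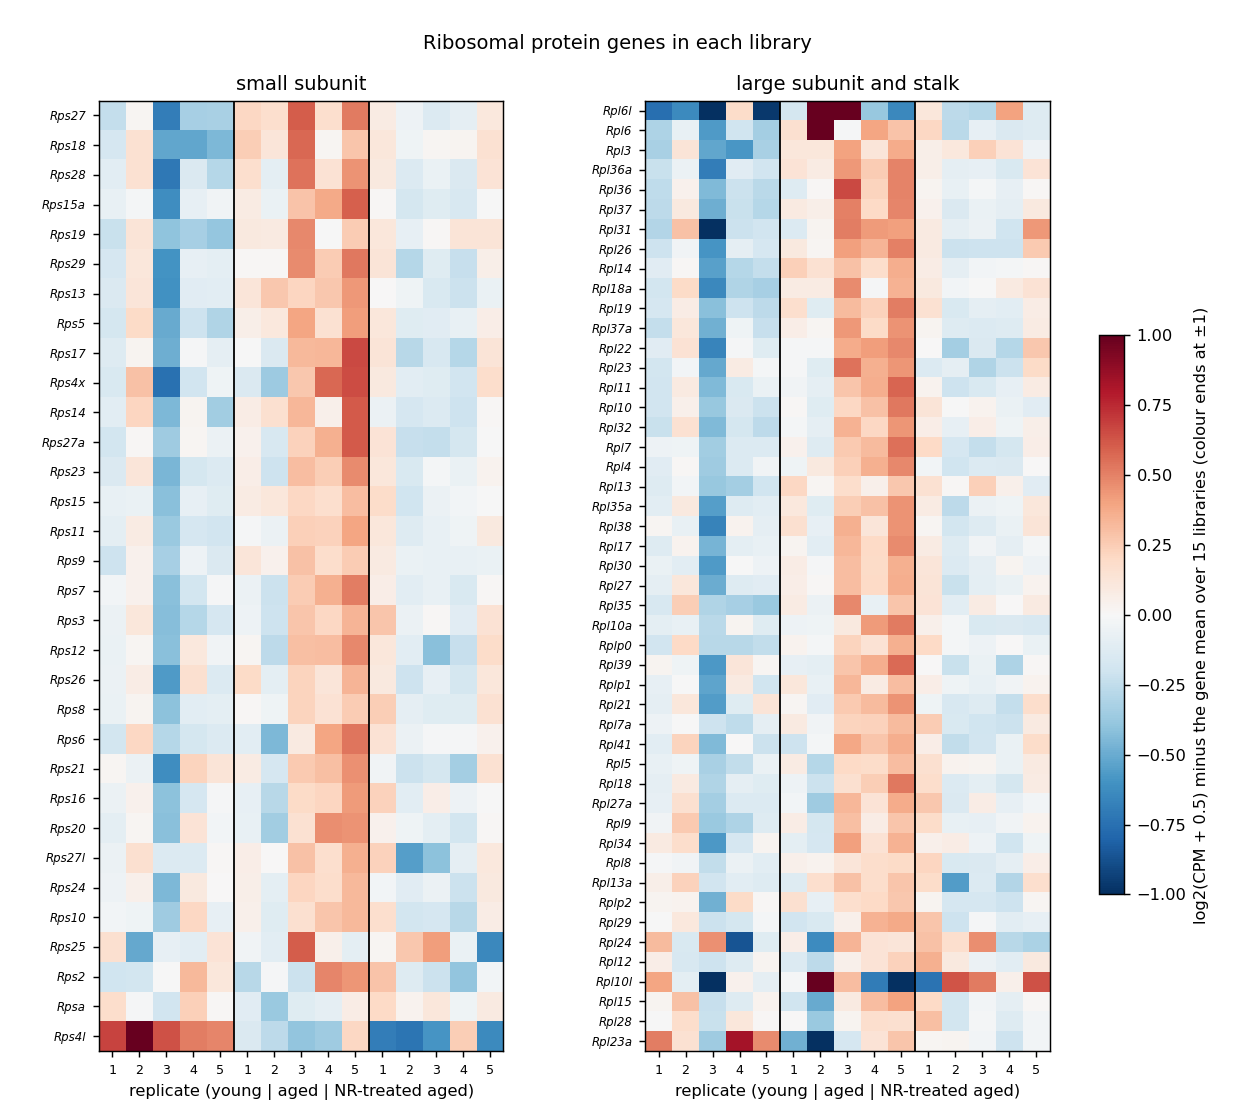
Each row is 1 of the 80 ribosomal protein genes and each column 1 library, with colour giving log2(CPM + 0.5) minus the mean of the gene over 15 libraries and black lines between young, aged and NR-treated aged HSC. Young replicate 3 is blue in nearly all rows (2 of 80 genes above their mean) and aged replicate 5 red (77 of 80), while Rps4l is red in the 5 young libraries.

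The first comparison asked how the genes differed between aged and young HSC. At a threshold of 0.05 on p-values adjusted over all 16154 genes (Benjamini-Hochberg, quasi-likelihood test of edgeR), 31 of the 80 ribosomal protein genes were age-upregulated, against 9.68% of all genes, and 1, Rps4l, was age-downregulated, against 9.63% of all genes. The fold change was above 0 in 76 of 80 genes, against 47.2% of all genes, and its median on the log2 scale was 0.32 over the members and -0.03 over all genes. The small subunit had 11 of 32 genes higher (median 0.31) and the large subunit 20 of 48 (median 0.33). Libraries of aged and young HSC did not overlap in 9 genes that were higher, against 6.86% of all genes, and in 1 that was lower, against 5.53%. The members share libraries and depth, so their counts are not independent of each other.

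The number of genes past the test changed with the libraries. It fell to 19, 16, 18 and 14 without young replicate 1, 3, 4 or 5 and to 13 without aged replicate 3 or aged replicate 5, and rose to 42 without aged replicate 2. Over all 16154 genes, 1290, 1497, 1134 and 1209 were higher without young replicate 1, 3, 4 or 5. The numbers were 1038 and 1163 without aged replicate 3 or 5, and 1479 without aged replicate 2. Leaving out the young replicates 1 and 5 with Y-linked transcripts together, chosen after seeing the data, left 5 genes higher, which were Rps27, Rpl14, Rpl6, Rpl36a and Rpl3, with a median over the members of 0.34. In that setting 940 of all 16154 genes were higher, a share near that of the members. With library totals in place of TMM sizes 14 genes were higher and 3 lower, the median of all genes moved from -0.03 to -0.16 and that of the members from 0.32 to 0.19, so that the members lay 0.35 and 0.36 above the median of all genes. Over all genes the split of higher and lower calls went from 1564 and 1556 to 1020 and 2485 under that scaling.

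**Figure D3:**
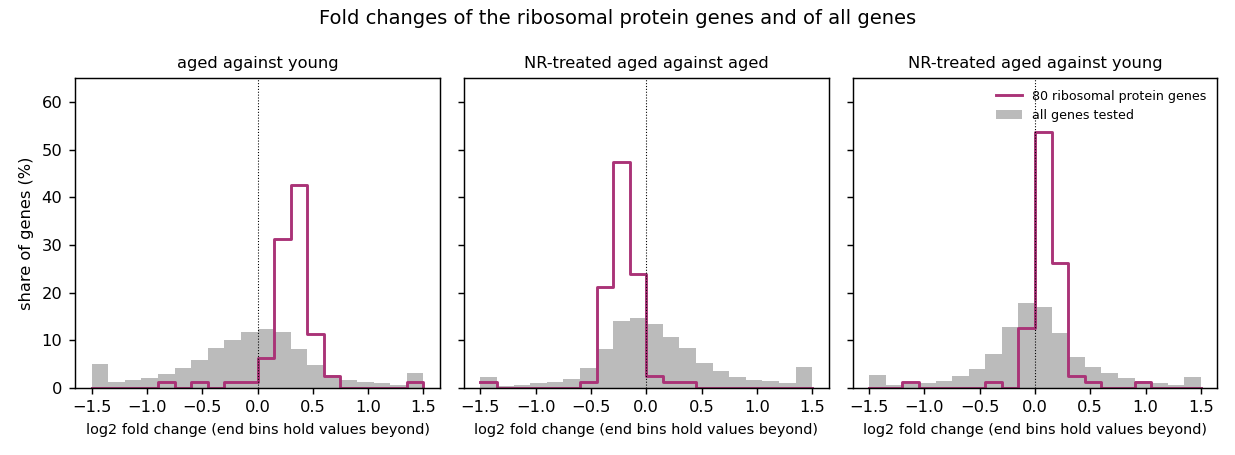
Distribution of log2 fold changes (x axis) as the share of genes per bin (%, y axis), in grey for all 16154 genes and as a line for the 80 ribosomal protein genes, for the 3 comparisons. The medians of the ribosomal protein genes lie at 0.32, -0.22 and 0.10, against -0.03, 0.02 and -0.005 for all genes.

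Rps27, a small-subunit protein with a zinc finger, had the smallest adjusted p of the family. Its level was 2383, 2864, 1742, 2234 and 2250.4 CPM in young replicates 1 to 5, 3246, 3166, 4293, 3168 and 4047 CPM in aged replicates and 2979, 2725, 2559.8, 2644 and 3024 CPM in NR-treated replicates. Every aged library lay above every young and every NR-treated one. The log2 fold change of aged against young was 0.64 ± 0.13 (SE, adjusted p = 0.00162).

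Rpl14, a protein of the 60S subunit, was measured at 2774, 3029.7, 2058, 2463 and 2549.5 CPM in young, 3540.4, 3342, 3689, 3403 and 3856 CPM in aged and 3163, 2829, 2944, 2957 and 3034 CPM in NR-treated HSC. Aged libraries again lay above all others, by 0.47 ± 0.10 on the log2 scale against young (adjusted p = 0.00359). Of the 329 windows of read length in its last 400 bases, 4.6% occur in a transcript of another gene, so that most of its reads can be placed in a single gene.

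Rpl36a, a 60S protein at the exit site of transfer RNA, was at 1354, 1519.5, 981, 1459.5 and 1384 CPM in young, 1737, 1678, 2133, 1884 and 2233 CPM in aged and 1644, 1482, 1492, 1424 and 1740.5 CPM in NR-treated HSC. Aged and young libraries did not overlap, and the log2 fold change was 0.53 ± 0.12 (adjusted p = 0.00477). All of its 3′ windows (100%) occur in transcripts of other genes, so this value is uncertain for the gene itself. Rpl3, which lies next to the site of peptide bond formation, was at 2057, 2817, 1795, 1717 and 2055 CPM in young, 2776, 2776, 3403, 2789.8 and 3326 CPM in aged and 2676, 2767, 3034, 2820.2 and 2485 CPM in NR-treated HSC. Young replicate 2 reached the range of the aged libraries, and the rise of 0.53 ± 0.12 passed the test (adjusted p = 0.00597).

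Rpl6, another 60S protein, had 1 aged library far from the rest. It was at 788, 929.9, 662, 853 and 773 CPM in young, 1094, 2060.3, 968, 1283 and 1195 CPM in aged and 1129.9, 811, 923, 885 and 895 CPM in NR-treated HSC. Aged replicate 2 stood far above the other aged libraries, which still lay above the young ones. The log2 fold change was 0.72 ± 0.16 (adjusted p = 0.00469), and 0.50 without that library (adjusted p = 0.00929).

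**Figure D4:**
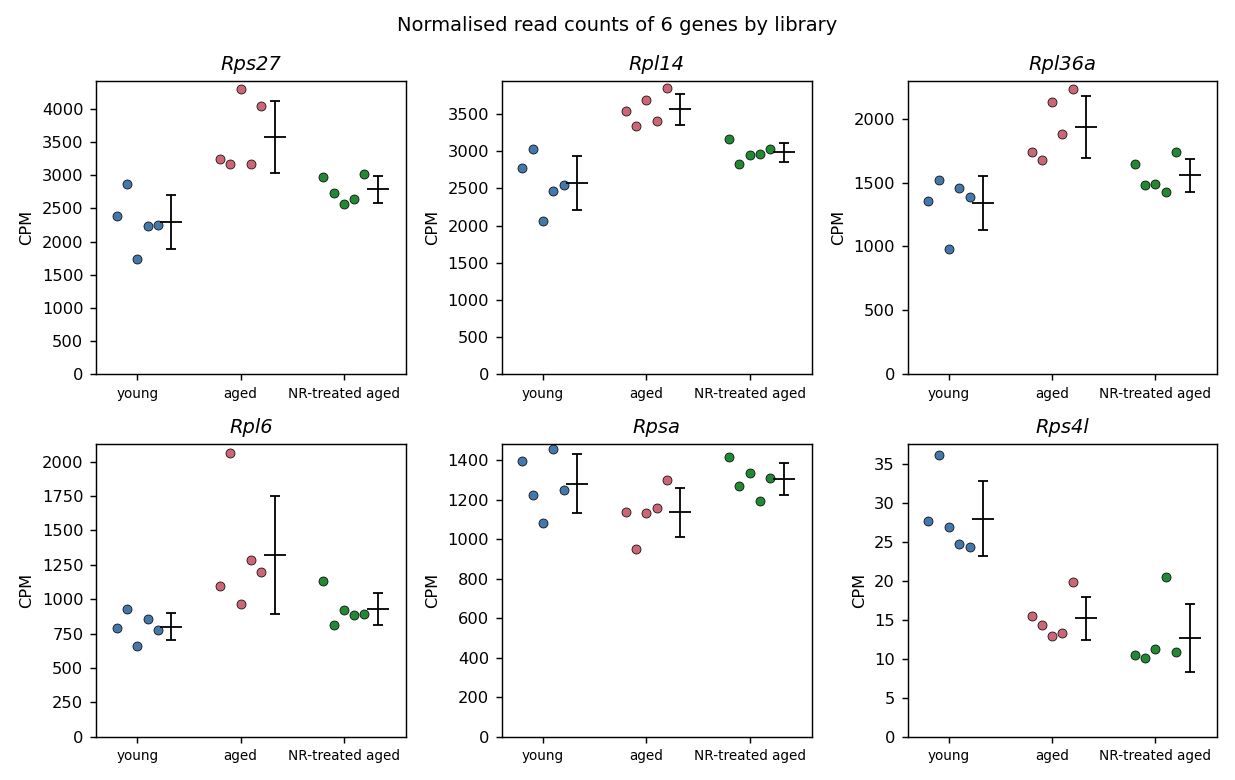
Normalised read counts (CPM with TMM library sizes, y axis from 0) of 6 ribosomal protein genes in the 5 young, 5 aged and 5 NR-treated aged libraries. Points are libraries and bars are the mean ± SD (n = 5); Rps27 and Rpl14 are higher in every aged library than in any other, Rpsa overlaps between groups, and Rps4l is higher in every young library.

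Among members named whatever their values, several are known from blood disease and growth control. Rps19, the gene most often mutated in Diamond-Blackfan anemia, rose from 3768 ± 619 to 5048 ± 692 CPM (SD, n = 5), with a log2 fold change of 0.42 ± 0.12 (adjusted p = 0.0177). The call was lost without young replicate 5 (adjusted p = 0.0522), without aged replicate 3 (adjusted p = 0.0577) and without young replicates 1 and 5 together (adjusted p = 0.112). Rps14, lost in the 5q- form of myelodysplastic syndrome, had a log2 fold change of 0.37 ± 0.13 and did not pass the test (adjusted p = 0.051). Its level was 5961, 7427, 4686, 6539.9 and 5039.9 CPM in the young libraries and 6761, 7184, 8052, 6656 and 9786 CPM in the aged libraries, and young replicate 2 lay within the aged range.

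Rpl5 and Rpl11, which with 5S ribosomal RNA bind and block Mdm2 when ribosome assembly fails, had log2 fold changes of 0.26 ± 0.11 (adjusted p = 0.0928) and 0.38 ± 0.13 (adjusted p = 0.0413). Only the second passed the test. Its call was lost under 15 of the 27 alternatives run for it, among them young replicate 1, 3, 4 or 5, aged replicate 3, 4 or 5, or NR-treated replicate 4 left out (adjusted p between 0.0512 and 0.13). All 3′ windows of Rpl5 occur in other genes. Rps6, the substrate of S6 kinase, was at 1037 ± 146 CPM (SD) in young HSC and, in aged ones, at 1226 ± 323 CPM (0.24 ± 0.15, adjusted p = 0.255). Rpl22, needed for T cell development, and Rpl38, which supports translation of Hox mRNAs, had values of 0.40 ± 0.15 and 0.35 ± 0.13 on the log2 scale (adjusted p = 0.0693 and 0.0654).

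The stalk proteins Rplp0, Rplp1 and Rplp2, which recruit translation factors to the 60S subunit, had log2 fold changes of 0.30, 0.29 and 0.17, and none passed the test (adjusted p = 0.0619, 0.0807 and 0.305). Rps27a, made as a fusion with ubiquitin, was measured at 1440.3 ± 153 CPM in young HSC and 1834 ± 378 CPM in aged HSC (0.35 ± 0.13, adjusted p = 0.0662). Leaving out aged replicate 2 brought Rpl5, Rplp0, Rpl38 and Rps27a under the threshold, with adjusted p between 0.0208 and 0.0476.

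The 4 members below 0 in this comparison were Rps4l, Rpl23a, Rpsa and Rpl28. Rpsa, a 40S protein that is also known as a laminin receptor, was at 1394, 1221, 1080.4, 1457 and 1246 CPM in young, 1137, 952, 1132, 1155 and 1299 CPM in aged and 1415, 1266, 1336, 1195 and 1309.8 CPM in NR-treated HSC. The groups overlapped, and the value of -0.17 ± 0.10 did not pass the test (adjusted p = 0.261), although it did with library totals (-0.30, adjusted p = 0.0283). Rpl23a was at 87.4, 67.9, 47.6, 109.6 and 85 CPM in the young libraries and 43.8, 27.2, 54.3, 67.2 and 74.3 CPM in the aged libraries (-0.53 ± 0.20, adjusted p = 0.074), and 85.4% of its 3′ windows occur in 17 other genes. Rpl28, chosen after its values were seen, had a log2 fold change of -0.01 ± 0.12 (adjusted p = 0.974).

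A scaling to the family itself, with the summed counts of the 80 genes as the library size, was added after seeing the data to set each gene against the others. Here 2 genes were higher in aged than in young HSC, Rps27 (0.29 ± 0.07, adjusted p = 0.00614) and Rpl6l, against 3.1% of all genes, and 6 were lower, against 28.9% of all genes. The lower ones were Rpsa (-0.53 ± 0.09, adjusted p = 0.000569), Rps4l, Rpl23a (-0.92 ± 0.19, adjusted p = 0.00156), Rpl28, Rpl15 and Rpl12, of which the last 3 were chosen after their values were seen (-0.37, -0.32 and -0.28). Rpsa thus passed the test relative to the family and did not pass it with TMM sizes.

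Reads of ribosomal protein genes are hard to place, since many retrotransposed copies exist. In GENCODE M21, 78 of the 80 members are protein coding, while Rps4l (chr6:148354656-148355598, plus strand) is a transcribed processed pseudogene and Rpl6l (chr10:111125851-111126721, plus strand) a processed pseudogene, each with 1 exon. Over the last 400 bases of each gene, a median of 43.6% of the 72-base windows also occurred in transcripts of other genes, and 65 members shared over 10% of them. The 14 protein-coding members with under 10% shared had 6 genes higher in aged than in young HSC and a median of 0.32, the median of the 30 that shared over 50% was 0.33 with 12 genes higher, and that of all 80 was 0.32.

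Rps4l, the member lower in aged HSC, has 631 of the 789 coding bases of its parent Rps4x, a 40S protein. The lines below give bases 724 to 783 of the Rps4x coding sequence and the aligned bases of the Rps4l transcript, both from GENCODE M21, to show how far reads of the copy and its parent can be told apart in a stretch of close likeness. Capitals mark the 3 bases that differ.
Rps4x: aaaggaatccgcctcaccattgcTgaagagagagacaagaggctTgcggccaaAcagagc
Rps4l: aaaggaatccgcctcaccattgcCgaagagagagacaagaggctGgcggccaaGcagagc
The next 2 lines give bases 812 to 871 of the Rpl6 coding sequence and the aligned bases of Rpl6l, which is 96.8% identical to Rpl6, with 0 differences in this stretch.
Rpl6: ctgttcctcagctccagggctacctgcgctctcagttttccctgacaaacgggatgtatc
Rpl6l: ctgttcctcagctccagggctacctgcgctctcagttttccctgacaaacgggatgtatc
Of the 3′ windows, 5.1% were shared for Rps4l and 86.0% for Rpl6l.

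Rps4l was at 27.7, 36.2, 26.9, 24.7 and 24.3 CPM in young, 15.5, 14.3, 12.9, 13.3 and 19.9 CPM in aged and 10.5, 10.1, 11.3, 20.5 and 10.9 CPM in NR-treated HSC, from 11 to 153 counts in each library. Every young library lay above every aged and every NR-treated library. The log2 fold change of aged against young was -0.87 ± 0.20 (adjusted p = 0.00521), and with all libraries thinned to the smallest total it was -1.12 and missed the threshold (adjusted p = 0.0523). Rpl6l had the largest fold change of the family, 2.73 ± 0.82 (adjusted p = 0.0249), from very low counts. It had 2, 2, 0, 5 and 2 counts in young libraries and 9, 10, 164, 6 and 4 in aged ones, so that 4 of the young libraries lay at 3 counts or fewer, the limit that a count of 0 allows for counting error alone. Its level was 1.3, 13, 13.9, 1.07 and 0.8 CPM in aged replicates, of which replicates 2 and 3 stood apart, and without aged replicate 3 the value was 1.62 (adjusted p = 0.221).

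Ratios of a paralog to its partner within a library need no scaling between libraries. For 5 pairs, 15 comparisons were tested by a two-sided exact permutation test with Benjamini-Hochberg adjustment over all 15, where 252 arrangements allow no p below 0.00794. Rps27l, a paralog of Rps27 that p53 induces, had log2 ratios to Rps27 of -2.71, -2.75, -2.34, -2.69 and -2.56 in young, -3.03, -3.05, -3.20, -2.90 and -3.06 in aged and -2.74, -3.39, -3.17, -2.89 and -2.89 in NR-treated HSC. Every aged library lay below every young one, with a difference of -0.44 (means -3.05 ± 0.11 and -2.61 ± 0.17, SD, n = 5, exact p = 0.00794, adjusted p = 0.0397). The NR-treated libraries differed from the young ones by -0.41 (means -3.02 ± 0.26 and -2.61 ± 0.17, exact p = 0.0159, adjusted p = 0.0595), with replicate 1 within the young range. Rps27l itself was at 372 ± 32.8, 431 ± 44.6 and 351 ± 79.2 CPM in young, aged and NR-treated HSC and did not pass the test in any comparison.

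The log2 ratio of Rps4l to Rps4x was -5.14, -5.20, -4.58, -5.27 and -5.44 in young, -5.99, -5.84, -6.67, -6.92 and -6.43 in aged and -6.79, -6.63, -6.45, -5.54 and -6.81 in NR-treated HSC. All young libraries lay above all others. The difference was -1.24 for aged against young and -1.31 for NR-treated against young (exact p = 0.00794 and adjusted p = 0.0397 for both). With any young library left out, the adjusted p of these ratios and of Rps27l to Rps27 in aged against young HSC was 0.0595 to 0.0794. Without young replicates 1 and 5 the values were -1.35 and -1.42 for Rps4l and -0.45 for Rps27l in aged against young, each with an adjusted p of 0.0893. Fewer arrangements remain in that setting, so the smallest exact p is larger. Each of these exact p was the smallest possible, and the libraries left did not overlap. The missed threshold therefore cannot be read as a weaker difference.

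Rpl36al, a copy of Rpl36a with 87.7% identity of the coding sequence, had a log2 ratio to its partner that differed by -0.37 in aged and by -0.35 in NR-treated from young HSC (exact p = 0.0476 and 0.0397, adjusted p = 0.119 for both). Rpl22l1 to Rpl22 differed by -0.09 in aged against young HSC (adjusted p = 0.762). Rpl10l, an intronless testis gene with 1 to 27 counts in each library, differed by -0.24 in its ratio to Rpl10 (adjusted p = 0.873).

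**Figure D5:**
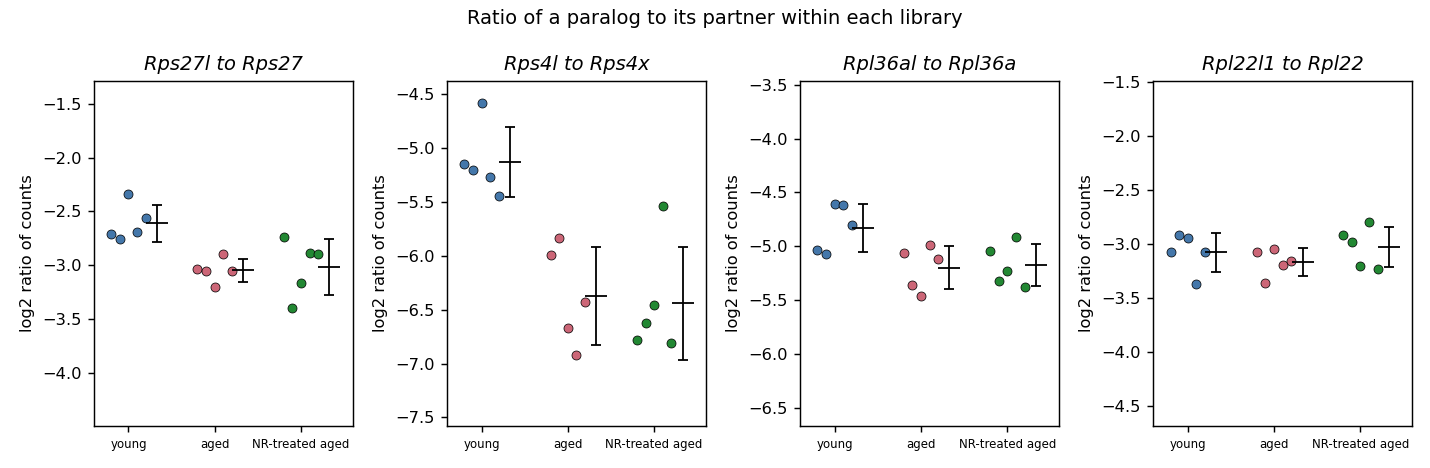
Log2 ratio of the counts of a paralog to those of its partner in each library (y axis, each panel spanning the same range) for 4 pairs in young, aged and NR-treated aged HSC. Points are libraries and bars the mean ± SD (n = 5): Rps27l to Rps27 is lower in every aged than in any young library (means -3.05 and -2.61), and Rps4l to Rps4x is lower in every aged and NR-treated library than in any young one.

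The second comparison asked how the genes differed between HSC from NR-treated aged and untreated aged animals. None of the 80 genes passed the quasi-likelihood test of edgeR in either direction, against 3.88% of all genes higher and 4.18% lower. At an unadjusted p under 0.05 there were 28 members, all lower, against 12.4% of all genes. In either direction, that number was 6 with library totals and 13 with at least 10 counts in every library. It was 13 without aged replicate 3, 10 without aged replicate 5 and 45 without aged replicate 2. It was 16 to 18 without aged replicate 4 or NR-treated replicate 2, 3 or 4. How many of all genes reached this unadjusted threshold in these settings was not counted, so the changes cannot be set against a background. The likelihood ratio test called 1 lower, DESeq2 6 and limma-voom 3, against 831, 881 and 905 of all 16154 genes. The fold change was below 0 in 76 of 80 genes, with a median of -0.22 on the log2 scale against 0.02 over all genes. With library totals the medians were -0.08 and 0.16, so that the members differed from the median of all genes by -0.24 under both scalings. This difference was -0.145 over the genes that reached 10 counts in each library and -0.185 without aged replicate 5. The aged libraries are the same as in the first comparison, so these values and the age-related ones are not independent.

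Libraries of the 2 groups did not overlap in 4 of the 80 genes, all lower in NR-treated HSC, against 4.95% of all genes, a share near that of the members. The 4 genes were Rps27 (-0.36 ± 0.13, adjusted p = 0.079), Rpl14 (-0.26 ± 0.10, adjusted p = 0.122), Rps14 (-0.37 ± 0.13, adjusted p = 0.0835) and Rps13, a 40S protein chosen after its values were seen (-0.36 ± 0.11, adjusted p = 0.0572). Rps14 was at 6761, 7184, 8052, 6656 and 9786 CPM in aged and 6145, 5696, 5841, 5558 and 6458 CPM in NR-treated HSC. Rps13 was at 1368, 1515, 1463, 1521 and 1702 CPM in aged and 1263, 1221, 1129.8, 1087 and 1203 CPM in NR-treated HSC.

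Rpl6 differed by -0.50 ± 0.16 on the log2 scale (adjusted p = 0.0595), and NR-treated replicate 1 lay within the aged range. Rpsa was one of the members above 0 (0.20 ± 0.10, adjusted p = 0.24), and under the scaling to the family it passed the test with 0.42 ± 0.09 (adjusted p = 0.014), as it did with library totals (0.33, adjusted p = 0.0293). Rpl6l and Rpl10l, at 1.52 ± 0.43 and 2.27 ± 0.93 CPM in NR-treated HSC, had log2 fold changes of -1.81 ± 0.73 and 0.41 ± 0.51 that did not pass.

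Single libraries set whether any member was called in this comparison. Without young replicate 2 or 3, which enter through the shared estimate of the spread, 3 and 5 genes were lower, without aged replicate 1 or 2 there were 3 and 1, and without NR-treated replicate 1 there was 1. Over all 16154 genes the numbers lower in these settings were 811 and 812, 688 and 575, and 547. Without young replicate 3 and aged replicate 2 together, chosen after seeing the data, 12 members were lower, against 763 of all genes. The median of the members was then -0.28. Without aged replicate 5, the library highest in these transcripts, the median was -0.17 and 72 genes lay below 0.

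The third comparison set HSC from NR-treated aged animals against HSC from young animals. No member was higher by the quasi-likelihood test, against 2.56% of all genes, and Rps4l was lower, against 1.91% of all genes. DESeq2 called 2 higher, limma-voom 1 and the likelihood ratio test 0, against 523, 346 and 553 of all 16154 genes. At an unadjusted p under 0.05, 7 members were higher, against 8.47% of all genes, a share near that of the members. At that threshold the members in both directions together numbered 8 of 80, against 2903 of all 16154 genes. The members numbered 17 without young replicate 2, 4 without young replicate 3 and 3 without young replicate 4. Without young replicate 5, or without young replicates 1 and 5 together, they also numbered 3. The number over all genes was not counted in these settings. Rps4l differed by -1.15 ± 0.21 on the log2 scale (adjusted p = 0.00177), and it was the member whose libraries did not overlap, against 1.94% of all genes lower without overlap. The fold change lay above 0 in 68 of 80 genes with a median of 0.10, against -0.005 over all genes. That median was 0.03, with 48 genes above 0, without young replicate 3. With young replicates 1 and 5 left out, Rps4l differed by -1.22 (adjusted p = 0.00688).

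Rpl3 had the smallest adjusted p of the genes above 0 (0.40 ± 0.12, adjusted p = 0.0722), and passed the test without young replicate 2 (0.53, adjusted p = 0.00463), with library totals (0.42, adjusted p = 0.0337) and in DESeq2 (adjusted p = 0.0206). Rps27 had a value of 0.28 ± 0.13 against young HSC (adjusted p = 0.247), Rps19 0.29 ± 0.12 (adjusted p = 0.188) and Rps14 0.00 ± 0.13 (adjusted p = 0.997). For Rps27, Rpl14, Rpl36a and Rpl6 the NR-treated libraries overlapped the young ones, with means of 2786, 2985, 1556 and 929 CPM against 2295, 2575, 1339.5 and 801 CPM.

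Other genes of ribosome production were read from lists, to set the members beside them. Over all genes, 9.68% were higher and 9.63% lower in aged than in young HSC. For NR-treated against aged HSC these shares were 3.88% and 4.18%. Ribosomal proteins whose names the rule did not take were 7, of which Rps3a1, a 40S protein, was higher in aged HSC (0.40 ± 0.11, adjusted p = 0.0139), with a median of 0.19 over the list. Of 62 ribosome biogenesis genes 3 were higher and 4 lower in aged than in young HSC, with a median of 0.01, among them Imp3 and Imp4, of the complex that cuts the precursor of 18S RNA (0.42 and 0.49, adjusted p = 0.0109 and 0.00993), and Nat10, an RNA acetyltransferase (-0.49, adjusted p = 0.0268). Nat10 was higher in NR-treated than in aged HSC (0.66 ± 0.15, adjusted p = 0.0124). Among 14 genes of RNA polymerase I and rDNA transcription, 1 was higher with age (Polr1c, 0.47, adjusted p = 0.0218). The median fold change with age of the members, 0.32, stood beside 0.06 for this list.

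Translation initiation factors were mixed, with 4 of 34 higher and 1 lower in aged HSC and a median of 0.21. Eif4a2, an RNA helicase, rose by 0.57 ± 0.13 (adjusted p = 0.00499) and was lower in NR-treated than in aged HSC (-0.45, adjusted p = 0.0361), while the scaffold subunit Eif3b went the other way in both (-0.52 and 0.50, adjusted p = 0.0135 and 0.0348). Of 10 elongation and termination factors, Eef2k, the kinase that blocks elongation factor 2, was lower in aged HSC (-0.42 ± 0.10, adjusted p = 0.00672). Of 21 other mRNAs with a TOP motif, 2 were higher in aged HSC (Naca, 0.41, adjusted p = 0.013, and Eif3k, 0.44, adjusted p = 0.0096), and the median was 0.11.

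Among 13 hosts of small nucleolar RNAs, which guide the modification of ribosomal RNA, Snhg8 rose with age by 0.52 (adjusted p = 0.00551) and was lower in NR-treated than in aged HSC (-0.45, adjusted p = 0.0295), and Snhg4 was lower with age (-0.54, adjusted p = 0.0212). Of 11 genes of ribosome quality control, Gtpbp2, which rescues stalled ribosomes, was lower in aged than in young HSC (-0.45, adjusted p = 0.0324) and higher in NR-treated than in aged HSC (0.54, adjusted p = 0.0253).

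Of the 18 regulators of ribosomal protein synthesis measured, 3 were higher and 3 lower in aged than in young HSC, with a median of -0.23. Mycn, a transcription factor that drives ribosome production, was at 251, 200.1, 193, 201 and 242 CPM in young, 486, 444, 534, 447 and 531 CPM in aged and 276, 347, 226, 308 and 346 CPM in NR-treated HSC. All aged libraries lay above all others (1.17 ± 0.12 against young, adjusted p = 1.85e-06, and -0.70 ± 0.12 for NR-treated against aged, adjusted p = 0.0037). Mycn also stayed higher in NR-treated than in young HSC (0.47 ± 0.12, adjusted p = 0.0316). Larp1, which binds TOP mRNAs and holds back their translation, was at 74, 52.2, 60.6, 72.2 and 75.2 CPM in young, 48, 51.9, 36.5, 45.3 and 42 CPM in aged and 52, 62, 62.6, 61.4 and 64.5 CPM in NR-treated HSC. All aged libraries lay below all others, with young replicate 2 and NR-treated replicate 1 closest to them (-0.60 ± 0.13 against young, adjusted p = 0.00283, and 0.46 ± 0.13 for NR-treated against aged, adjusted p = 0.0341). Eif4ebp1, the inhibitor of cap binding that mTOR switches off, rose with age (0.69 ± 0.14, adjusted p = 0.00264), and Rheb, the activator of mTOR, was lower in NR-treated than in aged HSC (-0.37 ± 0.11, adjusted p = 0.0493).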

How the data were processed

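Per the labels and methods, reads were mapped with STAR 2.4.2a on GRCm38, UMI duplicates were removed, featureCounts counted reads on GENCODE exons, and the authors filtered low genes and deposited raw counts per gene. All 15 columns were used. Every library was described as 1 mouse, and same-numbered libraries were not pairs (mean correlation of deviations 0.00666 over 15 pairs). Groups were compared with edgeR 4.0.16 in R 4.3.3 (TMM sizes, 1 quasi-likelihood fit of all libraries, group as the only factor, Benjamini-Hochberg over all genes, 0.05), checked on simulated data. CPM uses TMM sizes, and shares use library totals. Paralog ratios added 0.5 counts to both genes. Alternatives used DESeq2 1.42.0, limma 3.58.1 and other settings. Reads of near-identical copies may be split or lost by the counting. Annotation and transcripts were GENCODE M21, while the authors counted on an earlier release. Libraries of a group differed beyond sampling noise (chi-square per degree of freedom at least 3.0). Named genes were members with the smallest adjusted p or largest change in each comparison, and members known from ribosome biology. Rpl39l and Rpl3l were not analysed here. Members, lists and rules were chosen with earlier results of these data known.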

Additional observations from a re-analysis of the deposited data

Results flagged for a closer look

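Among 84 groups of 5 libraries examined for the named genes, shares and ratios, 9 held a library whose gap to the nearest other exceeded Dixon's limit of 0.71, where chance flags about 1 in 20, or 4.2. Young replicate 2 was the highest for Rplp0 (3110 CPM, next 2373), Rps6 (1290 CPM, next 1014) and Rps4l (36.2 CPM, next 27.7). Young replicate 3 was the lowest for Rpl38 (717 CPM, next 1070). Aged replicate 2 was the highest for Rpl6 (2060 CPM, next 1283). NR-treated replicate 1 was the highest for Rplp0 (3107 CPM, next 2720). NR-treated replicate 4 was the lowest for Rpl23a (53.0 CPM, next 59.9) and the highest for Rps4l (20.5 CPM, next 11.3) and for the log2 ratio of Rps4l to Rps4x (-5.54, next -6.45). The causes were not tested.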

How the results depend on the processing

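The number of ribosomal protein genes higher in aged than in young HSC was 31 and went to 18 with only the 2 groups in the fit, 14 with library totals, 20 with thinned counts, 19 with the replicate block and 7 at an adjusted p under 0.01. It was 13 to 42 with each library left out, 2 with the family as library size and 5 without young replicates 1 and 5. Without young replicate 3 and aged replicate 2 it was 31. Of the 14 protein-coding members with unique 3′ windows, 6 were higher, which is a smaller set and not a lost call. DESeq2 called 45 and limma-voom 44, against 1666 and 1812 of all 16154 genes. Over all genes the number higher was 1414 with only the 2 groups in the fit, 1020 with library totals and 869 with thinned counts. It was 1413 with the replicate block and 940 without young replicates 1 and 5. The number of members lower was 1 and became 2 in DESeq2, with at least 10 counts in every library and without young replicate 3 and aged replicate 2, 3 with library totals, 6 with the family as library size, 0 with thinned counts and over protein-coding or unique members, and 1 to 2 with a library left out.

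In NR-treated against aged HSC, 1 gene was higher with library totals and with the family as library size, against 1246 and 1262 of all 16154 genes. The number of members lower was 0 and became 1 in the likelihood ratio test and with only the 2 groups in the fit, 6 in DESeq2, 3 in limma-voom, 12 without young replicate 3 and aged replicate 2, and 0 to 5 with a library left out. Over all genes the number lower was 831 in the likelihood ratio test, 817 with only the 2 groups in the fit, 881 in DESeq2 and 905 in limma-voom. It was 763 without young replicate 3 and aged replicate 2. In NR-treated against young HSC, 2 members were higher in DESeq2, 1 in limma-voom, with library totals and with at least 10 counts in every library, and 0 to 4 with a library left out (4 without young replicate 2), and the number lower was 0 over protein-coding or unique members. Over all genes 523 were higher in DESeq2, 346 in limma-voom, 430 with library totals and 463 without young replicate 2. The replicate block changed neither count of members in the last 2 comparisons.

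The log2 ratio of Rps27l to Rps27 in aged against young HSC was -0.48 to -0.37 with a library left out and -0.45 without young replicates 1 and 5, and -0.47 to -0.31 in NR-treated against young HSC, where it passed the test without NR-treated replicate 1 (adjusted p = 0.0298). Rps4l to Rps4x was -1.37 to -1.10 and -1.35 in aged against young HSC, and -1.54 to -1.18 and -1.42 in NR-treated against young HSC. Their calls were lost with any young library left out. Medians over the members kept their direction in every alternative except the family as library size, which sets them near 0 by construction (-0.04, 0.01 and -0.04 in the 3 comparisons). Over the named genes and comparisons, 31 calls were lost and 50 gained across alternatives, and 1695 values kept their side of the threshold and, where called, their direction. The table holds 0 mitochondrial genes, so that shares without them are the shares given. Depth limits most the 3 members with under 10 counts in a library. The other causes were not tested.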

Other observations

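The 78 mitochondrial ribosomal protein genes measured, which build the separate ribosome of mitochondria, had 14 higher in aged than in young HSC by the quasi-likelihood test of edgeR, against 9.68% of all genes. At an unadjusted p under 0.05 there were 27, all higher, against 2539 of all 16154 genes higher. Their median log2 fold change was 0.22 and 71 lay above 0. In NR-treated against aged HSC 1 was lower, against 4.18% of all genes, 68 lay below 0 and the median was -0.18. The 186 ribosomal protein pseudogenes named -ps had 4 higher and 2 lower in aged than in young HSC (median 0.08), against 9.68% and 9.63% of all genes. In NR-treated against aged HSC 1 was higher and 1 lower, against 3.88% and 4.18% of all genes, with a median of 0.31 and 144 above 0. These pseudogenes held 0.514 to 0.729% of counts in young, 0.599 to 0.745% in aged and 0.668 to 0.786% in NR-treated HSC. These groups were looked at after the members' values were seen, and no test of either group as a whole was made.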
